A study of Danio rerio with 9 samples.

Results

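Solute carriers are membrane proteins that move amino acids, sugars, ions, metals, vitamins and other small molecules across the cell surface and across the membranes of organelles. They work as exchangers, as cotransporters that use an ion gradient, or as facilitators that follow the gradient of their own substrate. In the eye they supply the retina, lens and cornea with nutrients, and the pigment epithelium, the cell layer behind the photoreceptors, uses them to pass lactate, bicarbonate, chloride and other solutes between the blood and the retina. Here the members are the probe sets of the Affymetrix Zebrafish Genome Array whose only gene symbol in the platform annotation begins with slc, a family number and a letter. The mitochondrial slc25a carriers, the transmitter transporters slc6a, slc17a, slc32a, slc1a2b and slc1a3a, and slc24a5 and slc45a2 were left out. This gave 118 probe sets for 102 genes of 15617 probe sets on the array, 40 probe sets with a solute carrier symbol having been left out. Of the 118 members, 2 are not transporters by their names: slc7a6os lies opposite slc7a6 and slc4a1ap encodes an adaptor protein of slc4a1. Both were kept, and they are counted in the amino acid and the anion group below. Substrate groups were set by family number alone, so a group can hold members that carry another substrate.

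The samples were whole eyes of wild type zebrafish at 3, 4 and 5 days post fertilisation (dpf), with 3 arrays for each age and 9 arrays in all. No allele, transgene or drug is given for any group. The values were the log2 signals that the authors deposited after GCRMA. That method corrects the background of each probe by its base composition and sets arrays processed together on a common scale. The sources read here do not state whether all 9 arrays were processed together. A difference of the 4 dpf arrays from the others thus cannot be told apart from one of processing. A change is given here as the later minus the earlier age on the log2 scale, so that a positive value is a higher signal at the later age, whereas the study writes 3 versus 5 dpf. A probe set was called when its limma p-value, adjusted over the 15502 probe sets that are not controls, was under 0.05 and its change was at least 2-fold. A signal depends on the probes of its set as well as on the transcript, so signals were compared between ages and not between genes. In whole eyes, fewer cells of a type and less RNA per cell cannot be told apart.

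The 9 arrays had medians between 5.68 and 5.77, and arrays of the same age correlated at 0.983 to 0.995. Of the 118 members, 61 had a mean signal of at least 5 over the 9 arrays (51.7%, compared with 56% of all probe sets tested), and these are called bright below. The other 57, called dim, were near the low end of the scale. Signals of several marker lists of tissues other than retina and lens changed with age, and the source of these transcripts was not tested. Of 10 skeletal muscle markers measured, 6 fell between 3 and 5 dpf, and the mean signal of that list went from 8.54 to 8.93 at 3 dpf to 5.31 to 6.71 at 5 dpf. Of 5 cartilage markers, 4 fell (from 9.44 to 9.95 down to 5.46 to 5.85). Of 7 liver markers, 2 rose (from 5.44 to 7.34 up to 7.14 to 9.42), and of 8 markers of pancreas and gut, 4 rose (from 4.00 to 6.15 up to 6.72 to 8.18). These 4 were the pancreatic enzyme genes amy2a, ela2, ela2l and ela3l, whereas fabp2 of the same list had a negative change of -2.46 (limma adjusted p = 0.099). In epidermis and ionocytes 1 of 5 markers fell, and in neurons 2 of 4 fell (gap43 and stmn2a), while snap25a had a positive change of 0.65 short of 2-fold (adjusted p = 0.021). None of the 6 photoreceptor, 5 Muller glia, 4 pigment, 3 lens or 9 red blood cell markers measured was called by limma at 2-fold. Of these, pde6c of photoreceptors (0.90), rpe65a of the pigment epithelium (0.83), and glula (0.94), apoeb (0.79) and cav1 (-0.72) of Muller glia passed the adjusted p-value alone (adjusted p = 0.013 to 0.041), and by an unadjusted p under 0.05 the lists held 2, 3, 2, 2 and 2 genes. The photoreceptor list, which marks the labelled tissue, was between 11.93 and 12.86 on all arrays. The part of these shifts in the changes described next was not tested.

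Between 3 and 5 dpf, 7 of the 118 members were called (5.93%), beside 5.36% of all probe sets tested. Signals of slc43a2b, slc38a4, slc15a4, slc27a6 and slc7a3a rose, and those of slc39a7 and slc43a1a fell. These 5 genes that rose make up 4.24% of the members (2.97% of all probe sets rose), and the 2 that fell make up 1.69% (2.39% of all fell). Both shares lie near those of the whole array. The median change of the members was 0.10, as it was over all probe sets (0.10), and the median size of change was 0.25 beside 0.23. Among bright members 5 of 61 were called (8.2%), beside 8.34% of all bright probe sets. By the adjusted p-value alone, 14 members passed (11.9%, beside 11.3% of all), 6 of them higher (5.08%, beside 5.7%) and 8 lower at 5 dpf (6.78%, beside 5.63%). At an unadjusted p under 0.05 there were 42 members (35.6%, beside 35.2% of all probe sets). This is the background for the counts by unadjusted p given further on for 3 to 5 dpf. Across all comparisons of ages, 110 of the 118 members were called in none.

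**Figure D1:**
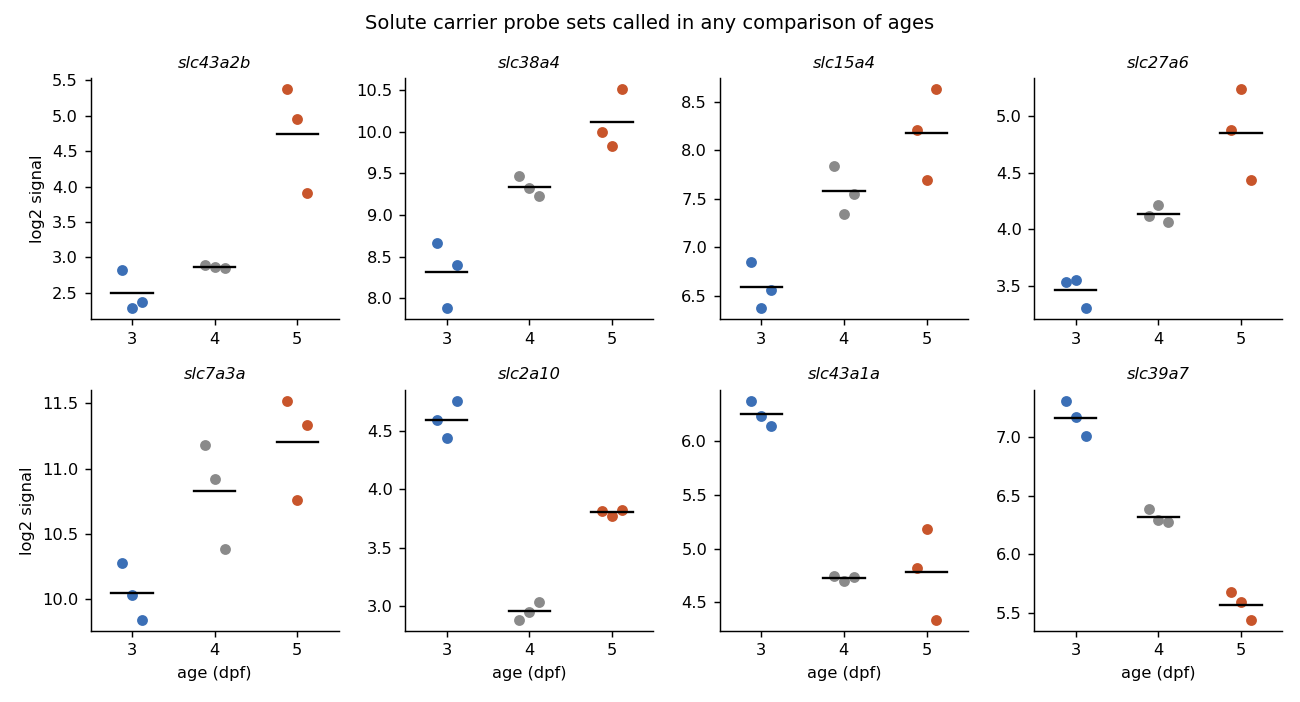
Log2 signal (vertical axis, a separate scale for each panel) against age in dpf (horizontal axis) for the 8 solute carrier probe sets called between any pair of ages. Each point is an array, 3 for each age, and the horizontal lines are the means. The 3 dpf and 5 dpf arrays do not overlap in any panel, and slc2a10, slc43a1a and slc39a7 had their 3 dpf arrays above all others.

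The amino acid group was the largest, with 19 probe sets for 17 genes, slc7a6os included, and 13 of the probe sets were bright. It held 4 of the 7 calls, 3 higher and 1 lower, and 15 of the 19 were not called. The group's median change was 0.06, and 10 of its probe sets had a positive and 9 a negative change. The 3 that rose carry different substrates, and the 1 that fell shares its substrates with 1 of them. slc43a1a and slc43a2b encode facilitators of large neutral amino acids such as leucine and phenylalanine, slc7a3a encodes a carrier of arginine and lysine, and slc38a4 encodes a sodium-coupled carrier of small neutral amino acids that is best known from liver in mammals.

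slc43a2b was near the low end of the scale until 4 dpf and higher at 5 dpf. Its signals were 2.83, 2.28 and 2.37 at 3 dpf, 2.90, 2.87 and 2.85 at 4 dpf, and 5.37, 4.96 and 3.91 at 5 dpf. All 5 dpf arrays were above all arrays of the other ages, and the 5 dpf arrays differed among themselves by more than those of 3 or 4 dpf. The change was 2.25 (SE 0.40, adjusted p = 0.028), and only 16.8% of it had taken place by 4 dpf. Between 4 and 5 dpf the change was 1.87 (adjusted p = 0.021), the only member called of the 118 in that step (0.847%, beside 0.439% of all probe sets). The gene is dim, with a mean of 3.37 over the 9 arrays, and when all signals under 4 were set to 4 the change was 0.78 (adjusted p = 0.37). The call also depended on single arrays, since it was held in 2 of 6 fits that each left out an array. It was lost without any of the 3 dpf arrays and without 5 dpf replicate 2, with adjusted p-values up to 0.11. The call between 4 and 5 dpf was held in 5 of 9 such fits and lost without any of the 4 dpf arrays or 5 dpf replicate 2 (adjusted p up to 0.085).

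The duplicated copy slc43a2a, which arose with slc43a2b in the genome duplication of the teleost fishes, did not pass the test. Its signals were 8.69, 8.93 and 8.24 at 3 dpf, 8.63, 8.64 and 8.27 at 4 dpf, and 9.21, 8.64 and 8.62 at 5 dpf. The ages overlapped, and the change between 3 and 5 dpf was 0.20 (adjusted p = 0.55). Taken within each array, the signal of slc43a2b minus that of slc43a2a rose by 2.05 between 3 and 5 dpf (SE 0.36, adjusted p = 0.020 over 664 pairs). Pairs were genes whose symbols differ only in a final a or b, so not every pair need be duplicated copies. The difference in change for slc43a2 was the only one to pass among the 6 pairs in which both genes are members, whereas 97 of the 664 pairs on the array passed (14.6%). It was lost when replicate 2 or replicate 3 of 3 dpf or replicate 2 of 5 dpf was left out, and when signals under 4 were set to 4. For the other 5 pairs, the b copy minus the a copy changed by -0.72 for slc34a2 (SE 0.25, adjusted p = 0.12), 0.40 for slc20a1 (SE 0.36, adjusted p = 0.52), -0.33 for slc16a9 (SE 0.19, adjusted p = 0.29), -0.22 for slc37a4 (SE 0.22, adjusted p = 0.56) and 0.16 for slc3a2 (SE 0.28, adjusted p = 0.77).

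**Figure D2:**
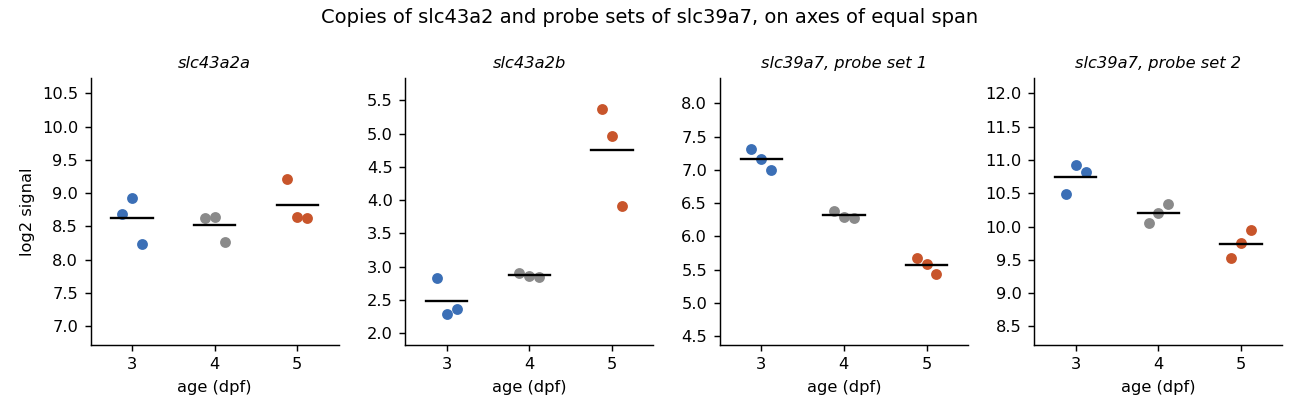
Log2 signal against age in dpf for the copies slc43a2a and slc43a2b and for both probe sets of slc39a7, all vertical axes spanning the same number of log2 units. Points are arrays and lines are means of 3 arrays. The 5 dpf arrays stand above the others for slc43a2b only, and both slc39a7 probe sets were lower at each later age.

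slc43a1a, of the same family, changed in the opposite direction and earlier. Its signals were 6.37, 6.23 and 6.14 at 3 dpf, 4.74, 4.70 and 4.73 at 4 dpf, and 4.82, 5.18 and 4.34 at 5 dpf. The 4 and 5 dpf arrays overlapped each other and all lay below the 3 dpf arrays. The change was -1.52 between 3 and 4 dpf (adjusted p = 0.0043) and 0.06 between 4 and 5 dpf (adjusted p = 0.88), and these steps differed from each other (adjusted p = 0.036), in 2 of 9 fits that left out an array (those without 5 dpf replicate 2 or 3) and not with signals under 4 set to 4. Over 3 to 5 dpf the change was -1.47 (SE 0.22, adjusted p = 0.019). The fall to 4 dpf held in each of 9 fits that left out an array. The fall to 5 dpf did so in 3 of 6 fits and was lost without any of the 3 dpf arrays (adjusted p up to 0.072).

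slc38a4 had higher signals at each later age. Its signals were 8.66, 7.88 and 8.39 at 3 dpf, 9.47, 9.33 and 9.23 at 4 dpf, and 9.99, 9.84 and 10.51 at 5 dpf, with no overlap between any ages. The change was 1.80 between 3 and 5 dpf (SE 0.27, 3.48-fold, adjusted p = 0.018), of which 57.1% had taken place by 4 dpf. It was called in 5 of 6 fits that left out an array and lost without 3 dpf replicate 3 (adjusted p = 0.073). Between 3 and 4 dpf the change was 1.03 (adjusted p = 0.031), called in 4 of 9 such fits, the call being lost without any of the 4 dpf arrays and without replicate 2 or replicate 3 of 3 dpf (adjusted p up to 0.10). The step from 4 to 5 dpf did not pass (0.77, adjusted p = 0.096). slc7a3a had signals of 10.28, 10.03 and 9.84 at 3 dpf, 11.18, 10.92 and 10.38 at 4 dpf, and 11.52, 10.76 and 11.34 at 5 dpf. Its 3 dpf arrays were below all others, and its 4 and 5 dpf arrays overlapped. Its change between 3 and 5 dpf was 1.15 (SE 0.23, adjusted p = 0.037). It was called in 1 of 6 fits that left out an array, the fit without 5 dpf replicate 2, with adjusted p-values up to 0.12.

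Other amino acid transporters gave values that did not pass the test. slc3a2b, the heavy chain that carries the light chains of the slc7 exchangers to the cell surface, had a mean of 11.59 ± 0.18 (SD, n = 3) at 3 dpf and 11.73 ± 0.54 at 5 dpf (change 0.14, adjusted p = 0.72), and its copy slc3a2a changed by -0.02 (adjusted p = 0.88). Both probe sets of slc7a8a, a light chain that exchanges neutral amino acids, had negative changes of -0.55 and -0.48 (adjusted p = 0.11 and 0.35). slc1a4, a neutral amino acid exchanger singled out after its values were seen, had signals of 8.47, 7.81 and 8.38 at 3 dpf and 7.81, 6.63 and 6.33 at 5 dpf. The highest 5 dpf array lay just below the lowest 3 dpf array, and the change was -1.29 with an adjusted p of 0.11.

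Zinc transporters were the other group with a call toward lower signal, and most of its members had a negative change. The group held 15 probe sets for 11 genes. The slc39a genes encode importers that bring zinc into the cytoplasm, and the slc30a genes encode exporters that move it out of the cell or into organelles. Of the 15 changes between 3 and 5 dpf, 11 were negative and 4 positive, with a median of -0.17. On 7 probe sets all 5 dpf arrays lay below all 3 dpf arrays, and on 2 they lay above. Of all probe sets on the array 13.6% lay wholly below and 41.8% wholly above, but these shares depended on signal. Of all bright probe sets 21.5% lay below and 21% above, and of all dim ones 3.58% and 68.2%. In the zinc group 9 of the 15 probe sets were bright. By the adjusted p-value alone, 4 of the 15 probe sets, of 3 genes, were lower and none higher, beside 5.63% lower and 5.7% higher of all probe sets (8 had an unadjusted limma p under 0.05). Whether the group differs in this from other probe sets was not tested.

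slc39a7 encodes the importer that releases zinc from the endoplasmic reticulum and Golgi into the cytoplasm. Its called probe set gave 7.31, 7.17 and 7.005 at 3 dpf, 6.39, 6.29 and 6.28 at 4 dpf, and 5.68, 5.59 and 5.44 at 5 dpf. No ages overlapped, and the signals fell by a like amount in each step. The change was -1.59 (SE 0.11, adjusted p = 0.0041), with 52.9% of it by 4 dpf. It had an adjusted p of 0.0027 between 3 and 4 dpf (-0.84) and of 0.0069 between 4 and 5 dpf (-0.75), both short of 2-fold, and the steps did not pass the test of their difference (adjusted p = 0.91). It was called in all 6 fits that left out an array and was the only member called when signals under 4 were set to 4. The second probe set of slc39a7 gave 10.49, 10.92 and 10.82 at 3 dpf, 10.06, 10.21 and 10.33 at 4 dpf, and 9.53, 9.76 and 9.95 at 5 dpf. Its ages did not overlap either, and its change of -0.999 (SE 0.16, adjusted p = 0.021) lay just under the 2-fold limit.

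Among the exporters, slc30a7, which loads zinc into the Golgi, fell by 0.59 on the log2 scale between 3 and 5 dpf (SE 0.08, adjusted p = 0.014), short of 2-fold. slc30a5, another exporter of the early secretory pathway, had means of 6.89 ± 0.02 at 3 dpf, 6.28 ± 0.12 at 4 dpf and 6.42 ± 0.21 at 5 dpf (SD, n = 3), with adjusted p = 0.013 for the step to 4 dpf (-0.61) and 0.060 for 3 to 5 dpf (-0.48). These exporters were picked out after their values were seen. The 3 probe sets of slc30a9 did not behave alike. The brightest, at 9.58 ± 0.20 at 3 dpf and 9.04 ± 0.07 at 5 dpf, fell by 0.54 (adjusted p = 0.043). The other probe sets changed by -0.26 (adjusted p = 0.067) and 0.11 (adjusted p = 0.24), the last with signals near 2.

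Among peptide carriers, slc15a4 encodes a proton-coupled carrier of histidine and small peptides that sits in the membranes of endosomes and lysosomes. Its signals were 6.85, 6.37 and 6.56 at 3 dpf, 7.84, 7.35 and 7.55 at 4 dpf, and 8.21, 7.70 and 8.63 at 5 dpf. All 4 and 5 dpf arrays were above all 3 dpf arrays, and 4 and 5 dpf overlapped. The change was 1.58 (SE 0.26, 3-fold, adjusted p = 0.024), with 62.1% by 4 dpf. It was called in 2 of 6 fits that left out an array and lost without any of the 3 dpf arrays or 5 dpf replicate 1 (adjusted p up to 0.092). slc15a1b, the intestinal peptide carrier in fish and mammals, had means of 3.44 at 3 dpf and 3.71 at 5 dpf (change 0.27, adjusted p = 0.13).

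Among lipid carriers, slc27a6 encodes a fatty acid transport protein. Its signals were 3.54, 3.56 and 3.31 at 3 dpf, 4.12, 4.22 and 4.07 at 4 dpf, and 4.87, 5.23 and 4.44 at 5 dpf. No ages overlapped, and the rise was spread over both steps. The change was 1.38 (SE 0.22, 2.6-fold, adjusted p = 0.020), with 48.4% by 4 dpf. It was called in 3 of 6 fits that left out an array, and was lost without any of the 3 dpf arrays (adjusted p up to 0.083). It is a dim member, and with signals under 4 set to 4 its change was 0.85 (adjusted p = 0.12). slc27a1a, of the same family, changed by -0.05 (adjusted p = 0.81).

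**Figure D3:**
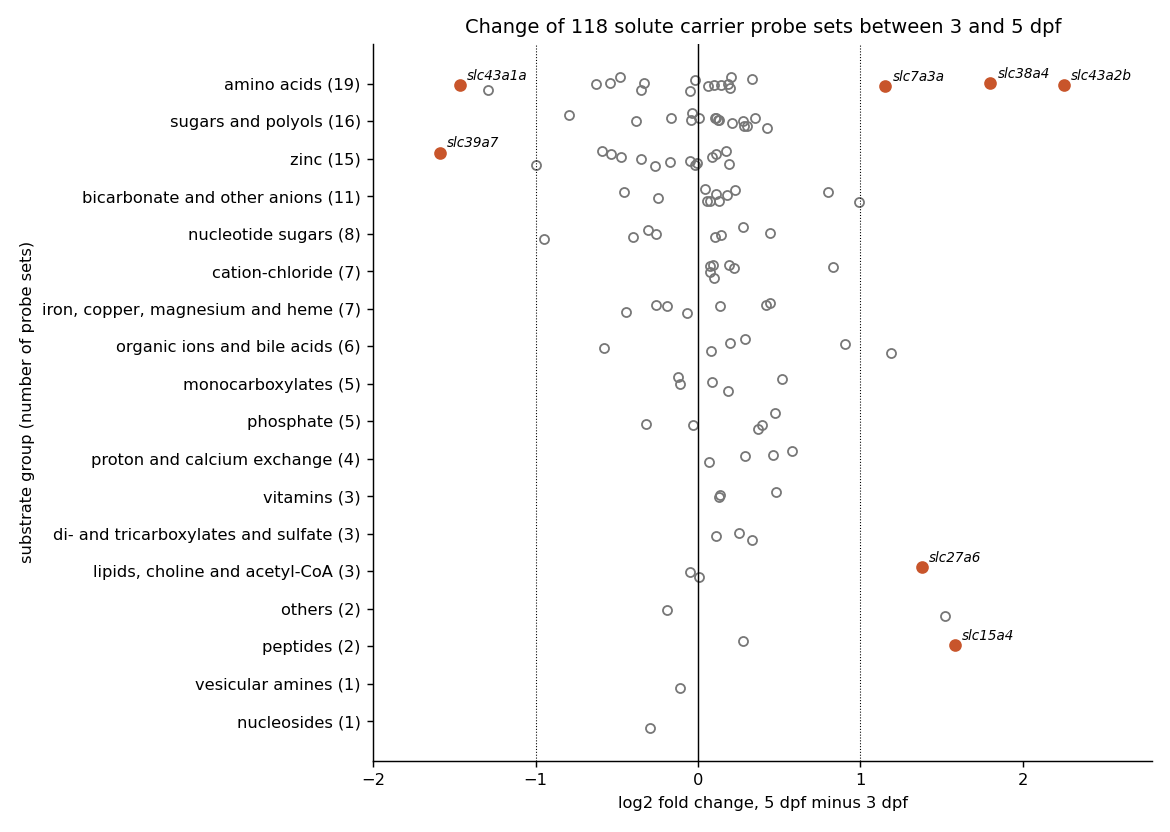
Log2 fold change between 3 and 5 dpf (horizontal axis, 5 dpf minus 3 dpf) of the 118 solute carrier probe sets by substrate group (vertical axis, number of probe sets in brackets). Filled points are called, open points are not, and dotted lines mark 2-fold. The 7 filled points lie in 4 of the 18 groups, and the points of the zinc group lie mostly to the left of 0.

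No member of the sugar and polyol group, set by family number, was called between 3 and 5 dpf in the limma fit. Its largest change was that of slc2a10 (-0.79, SE 0.09). This passed the adjusted p-value alone (adjusted p = 0.011), short of 2-fold. The group held 16 probe sets for 14 genes, and 5 probe sets were bright. At an unadjusted p under 0.05 there were 5. The largest positive change in the group was that of slc2a3a, a glucose facilitator of neurons in mammals. It had signals of 10.76, 10.79 and 10.53 at 3 dpf and 11.14, 11.30 and 10.92 at 5 dpf, which did not overlap (change 0.43, adjusted p = 0.090). slc2a15b, which in medaka is needed for pigment cells of the body, had a bright probe set that changed by 0.29 (adjusted p = 0.33) and a dim probe set near 3.

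slc2a10 was the sugar carrier called between 3 and 4 dpf, and its signal was lowest at 4 dpf. It encodes a glucose facilitator that is known from a human disorder of the arteries. Its signals were 4.59, 4.44 and 4.75 at 3 dpf, 2.88, 2.95 and 3.03 at 4 dpf, and 3.81, 3.77 and 3.82 at 5 dpf. No ages overlapped. It was called lower between 3 and 4 dpf (-1.64, adjusted p = 0.00012), had a positive change of 0.85 between 4 and 5 dpf (adjusted p = 0.0038, short of 2-fold), and its steps differed (adjusted p = 5e-04). The call between 3 and 4 dpf was held in all 9 fits that left out an array. All its 4 and 5 dpf signals were under 4, and it was not called when such signals were set to 4.

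The calls between 3 and 4 dpf were these of slc43a1a, slc2a10 and slc38a4, 3 of the 118 members (2.54%, beside 3.28% of all probe sets). By the adjusted p-value alone 25 members passed in that step (21.2%, beside 13.4% of all), 10 higher (8.47%, beside 7.21%) and 15 lower at 4 dpf (12.7%, beside 6.19%). These counts are not divided by signal here. Of the 57 dim members, 16 had all 4 dpf arrays below all 3 dpf arrays (28.1%, beside 17.7% of all dim) and 22 above (38.6%, beside 40.8%). Of the 61 bright members, 13 lay below (21.3%, beside 17.6% of all bright) and 16 above (26.2%, beside 20%). Between 4 and 5 dpf 14 members passed by the adjusted p-value alone (11.9%, beside 8.07%). A pattern in which the steps differed was seen for 13 members (11%, beside 6% of all). Of these, 11 had a negative first step and a positive second step, as slc2a10 had (9.32%, with 4.19% of all probe sets differing in that direction), and for slc20a2 and slc13a1 the first step was positive and the second negative (1.69%, with 1.81% of all differing in that direction). The steps of slc20a2 differed in 1 and those of slc13a1 in 2 of 9 fits that left out an array. With the replicate number as a block, slc20a2, slc13a1 and slc13a2 did not pass, slc12a7b and slc48a1b passed (adjusted p = 0.044 and 0.011), and 10 of the 13 members were shared. Of those 11, 10 were among the 57 dim members and 1 was among the 61 bright members. Such a fall followed by a rise was seen for 7.86% of all dim probe sets (536 of 6817). It was seen for 0.841% of all bright ones (73 of 8685). Whether the dim members differ in this from other dim probe sets was not tested. Each 4 dpf array had its lowest signal between 0.95 and 1.00, below the 1.09 to 1.16 of the arrays of the other ages, and with signals under 4 set to 4 the steps differed for 1 member, a probe set of slc30a9. The part of this difference in the low end of the scale in the pattern was not tested. slc20a2, a sodium-coupled phosphate carrier, had means of 4.68 ± 0.21, 5.54 ± 0.14 and 5.15 ± 0.27 at 3, 4 and 5 dpf (SD, n = 3).

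The low end of the scale also moved between 3 and 5 dpf. On 53 members all 5 dpf arrays lay above all 3 dpf arrays (44.9%, beside 41.8% of all probe sets), and on 17 they lay below (14.4%, beside 13.6%). Of the 57 dim members, 38 lay wholly above at 5 dpf (66.7%, beside 68.2% of all dim probe sets), while of the 61 bright members 15 lay above (24.6%, beside 21% of all bright) and 14 below (23%, beside 21.5%). The median signal of the dim members was 3.00 to 3.01 on the 3 dpf arrays, 3.08 to 3.10 at 4 dpf and 3.30 to 3.40 at 5 dpf, and over all dim probe sets it was 2.83 to 2.90, 2.90 to 2.92 and 2.97 to 3.05. For groups that consist mainly of dim members, such as the vitamin carriers (3 of 3 changes positive, none bright), the carriers of di- and tricarboxylates and sulfate (3 of 3, none bright) and the cation-chloride cotransporters (7 of 7, 1 bright), the direction of their changes is thus that of most dim probe sets on the array.

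**Figure D4:**
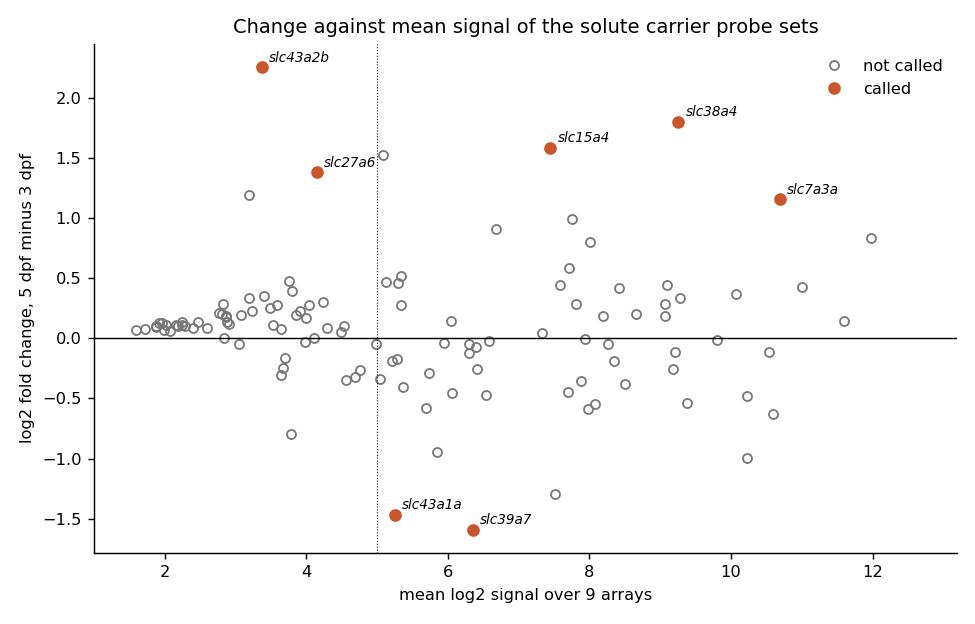
Log2 fold change between 3 and 5 dpf (vertical axis) against the mean log2 signal over the 9 arrays (horizontal axis) for the 118 solute carrier probe sets. Filled points are called, and the dotted line at 5 separates the 57 dim from the 61 bright members. Changes of members with signals near 2 are all close to 0, and 5 of the 7 called members are bright.

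The groups of carriers of chloride, bicarbonate and other ions had no call between 3 and 5 dpf in the limma fit. An unadjusted p under 0.05 was seen for 3 of 11 probe sets of the anion group, which includes slc4a1ap. It was seen for 2 of 7 cation-chloride cotransporters and 1 of 4 proton and calcium exchangers. Between 3 and 4 dpf slc12a7b and slc24a4a passed the adjusted p-value. So did the dim members slc12a4 (0.16, adjusted p = 0.044) and slc26a1, which was lower (-0.24, adjusted p = 0.037). slc12a7b, a potassium-chloride cotransporter, had signals of 11.30, 11.60 and 11.28 at 3 dpf, 12.14, 12.61 and 12.18 at 4 dpf, and 11.85, 12.49 and 12.35 at 5 dpf. Its 3 dpf arrays were below all others, with an adjusted p of 0.026 for the step to 4 dpf (0.92) and of 0.055 for 3 to 5 dpf (0.83). slc24a4a, a potassium-dependent sodium/calcium exchanger, had signals of 7.37, 7.20 and 7.39 at 3 dpf, 7.82, 8.03 and 7.90 at 4 dpf, and 7.99, 7.98 and 7.73 at 5 dpf. It rose by 0.58 between 3 and 5 dpf (SE 0.10, adjusted p = 0.026), short of 2-fold. It was higher by 0.60 at 4 dpf already (adjusted p = 0.0094), and its 4 and 5 dpf arrays overlapped.

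slc4a4b, a sodium bicarbonate cotransporter, had signals of 6.82, 7.24 and 7.37 at 3 dpf and 7.97, 7.68 and 8.77 at 5 dpf. The ages did not overlap, and the change was 0.99 (SE 0.32, adjusted p = 0.10). slc26a5, known in mammals as the motor protein of outer hair cells of the ear, had means of 7.57 ± 0.25 and 8.38 ± 0.32 at 3 and 5 dpf (SD, n = 3, change 0.80, adjusted p = 0.070). slc9a7, a sodium/proton exchanger of the Golgi, changed by 0.29 (adjusted p = 0.31). Of the other phosphate carriers, slc20a1b changed by 0.37 (adjusted p = 0.091). No member of that group was called by limma between 3 and 5 dpf among 5 (3 had an unadjusted p under 0.05).

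Monocarboxylate carriers of the slc16a family, some of which move lactate and pyruvate, had 5 probe sets. Between 3 and 5 dpf none was called by limma or had an unadjusted p under 0.05. The dim member slc16a1b passed the adjusted p-value alone between 3 and 4 dpf (-0.17, adjusted p = 0.039). It did so between 4 and 5 dpf too (0.26, adjusted p = 0.015). slc16a3b, a lactate carrier, had means of 9.24 ± 0.20, 9.28 ± 0.31 and 9.13 ± 0.48 (SD, n = 3) at 3, 4 and 5 dpf, with a change of -0.11 from 3 to 5 dpf (adjusted p = 0.76). slc16a9a and slc16a9b changed by 0.52 and 0.19 (adjusted p = 0.19 and 0.73). bsg, the partner protein that brings lactate carriers to the cell surface, had 12.67 ± 0.28 at 3 dpf and 12.93 ± 0.31 at 5 dpf and was not called (change 0.26, adjusted p = 0.37).

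Among carriers of iron, copper, magnesium and heme, 7 probe sets had no call by limma between 3 and 5 dpf. Of these, 6 were bright, and 1 had an unadjusted p under 0.05 in that comparison. slc40a1, the iron exporter ferroportin, had means of 8.11 ± 0.15, 8.61 ± 0.18 and 8.53 ± 0.13 at 3, 4 and 5 dpf (SD, n = 3), with an adjusted p of 0.035 for the step to 4 dpf (0.50) and of 0.068 for 3 to 5 dpf (0.42). Both probe sets of the copper importer slc31a1 had overlapping arrays at 3 and 5 dpf, with changes of -0.44 and -0.26 (adjusted p = 0.42 and 0.23). slc49a4 had a bright probe set that changed by 0.45 (adjusted p = 0.14) and a dim probe set near 2.

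Nucleotide sugar carriers supply the Golgi and endoplasmic reticulum with the donors for glycosylation. Their group, set by family number, had 8 probe sets for 7 genes. None was called by limma between 3 and 5 dpf (2 had an unadjusted p under 0.05). slc35b4 had signals of 6.63, 6.25 and 6.26 at 3 dpf, 5.85, 5.69 and 5.65 at 4 dpf, and 5.79, 5.24 and 5.27 at 5 dpf. All 3 dpf arrays were above all others, and the change between 3 and 5 dpf was -0.95 (SE 0.19, adjusted p = 0.039), short of 2-fold. slc35b2, which in mammals carries the sulfate donor into the Golgi, changed by -0.26 (adjusted p = 0.20). The bright probe set of slc35f6 changed by 0.45 (adjusted p = 0.38).

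Of the remaining groups, the urea transporter gene slc14a2 had the largest change without a call. Its signals were 4.33, 4.05 and 4.15 at 3 dpf, 5.77, 5.26 and 5.15 at 4 dpf, and 6.60, 5.20 and 5.30 at 5 dpf. All 4 and 5 dpf arrays were above all 3 dpf arrays, and 5 dpf replicate 1 was far above the other two of its age. The change between 3 and 5 dpf was 1.52 (SE 0.40, adjusted p = 0.070). It was called when all 9 arrays were fitted (adjusted p = 0.025), with a trended and robust variance (adjusted p = 0.035), with replicates blocked, and without 5 dpf replicate 1 (1.07, adjusted p = 0.017). Between 3 and 4 dpf the change was 1.22 (adjusted p = 0.072). In that step slc14a2 was called with replicates blocked (adjusted p = 0.026), with a trended and robust variance (adjusted p = 0.046) and without 5 dpf replicate 1 (adjusted p = 0.0088). It was also called there when only the 3 and 4 dpf arrays were fitted (adjusted p = 0.016). Both probe sets of slc22a2, an organic cation carrier of the kidney in mammals, had positive changes of 0.91 and 1.19 (adjusted p = 0.16 and 0.092). The latter, a dim probe set, was called when all 9 arrays were fitted (adjusted p = 0.03). slc10a7 changed by -0.58 (adjusted p = 0.14), the nucleoside carrier slc29a2 by -0.29 (adjusted p = 0.30), slc35h1 by -0.19 (adjusted p = 0.33) and the riboflavin carriers slc52a2 and slc52a3-1 by 0.13 and 0.48 (adjusted p = 0.14 and 0.061). slc18a3a, which loads acetylcholine into synaptic vesicles and marks cholinergic amacrine cells in the retina, had means of 10.56 ± 0.16, 10.60 ± 0.11 and 10.45 ± 0.44 (SD, n = 3) at 3, 4 and 5 dpf. Its ages overlapped, and its change was -0.11 (adjusted p = 0.74).

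Genes with several probe sets showed how far the choice of probes decides a value. There were 14 such genes among the members. For slc35f6 the mean signals of its probe sets were 9.10 and 2.29, for slc49a4 7.58 and 2.25, for slc2a15b 9.07 and 2.91, and for slc30a9 they ran from 9.37 to 2.01. A member that is dim can therefore belong to a gene with a bright second probe set. slc39a7 was the only gene among the 14 with a called probe set, and its probe sets were both bright.

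Other genes of membrane transport were read by the same test with 1 probe set for each gene, where 562 of 8793 genes were called between 3 and 5 dpf (6.39%), 266 higher and 296 lower. Of the 102 solute carrier genes, 5 were called higher and 1 lower (5.88%), the brighter probe set of slc39a7 being just short of the limit. None of 15 genes of the vacuolar proton pump, 14 ABC transporters, 5 aquaporins and 2 organic anion polypeptides was called in the limma fit (2, 5, 0 and 0 of them had an unadjusted p under 0.05). Of 13 subunits of the sodium pump, which sets the gradient that many solute carriers use, only atp1a1a.2 was called, lower by 2.11 on the log2 scale (adjusted p = 0.026). Of 8 genes of the carbonic anhydrase family, set by symbol, only ca5a was called (1.24, adjusted p = 0.019). Of 5 genes of partner proteins (bsg, emb and fxyd genes), which are not all partners of solute carriers, only fxyd11 was called. It fell by 1.58 (adjusted p = 0.041). Among the solute carriers left out of the members, 3 of 25 mitochondrial carriers and 1 of 10 transmitter transporters, slc6a17, were called, all higher.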

How the data were processed

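Per the labels, total RNA of dissected whole eyes was labelled by the Affymetrix two-cycle protocol, and GCRMA is named without a version. The authors deposited log2 signals for each original probe set, with 3 arrays for each age. How the 4 dpf arrays were processed is not described in the sources read here. The labels give replicate numbers and not whether arrays came from separate clutches, so p-values measure the spread between these samples, and 3 arrays for each age limit the precision.

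Probe sets were assigned to genes by the platform annotation. Of 15617 probe sets, 115 controls were left out, and 10802 had 1 symbol, 135 several and 4680 none. The gene identifiers of all 118 members were found in a list of RefSeq genes, whose symbols then named the genes. limma 3.58.1 in R 4.3.3 was fitted with empirical Bayes to all 15502 probe sets, with Benjamini-Hochberg adjustment: to the 6 arrays of 3 and 5 dpf for that comparison, and to all 9 arrays for comparisons with 4 dpf and for the difference between steps. Pairs of copies were genes whose symbols differ only in a final a or b, and they were fitted as the difference within an array. In lists a gene was represented by its probe set with the highest mean signal. Genes were named by rule: all called members, the 2 brightest of each substrate group, the largest change in groups without a call, and copies that differed. The members, lists and rule were chosen with earlier results of these data known. The scripts were tested on simulated data.

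Deviations of same-numbered arrays from their age means correlated at 0.599, 0.497 and 0.439 between 3 and 4 dpf. All were over 0.1, so these numbers were taken to pair the samples, a pairing read from the data. It entered the replicate block only, and the main fits had no block. Replicate 1 of 5 dpf correlated at 0.541 with that of 3 dpf and 0.725 with that of 4 dpf. Replicates 2 and 3 of 5 dpf did so at -0.0718 to 0.041 and did not meet this rule. Some arrays of unlike number correlated more, such as 4 dpf replicate 2 with 5 dpf replicate 3 (0.529). The block may thus pair the 5 dpf arrays wrongly. Alternatives were quantile normalization, centring on the median, a floor at 4, a mean of at least 5, the replicate block, trended and robust variance, no fold limit, control probe sets kept, another set of arrays, and leaving out each array.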

Additional observations from a re-analysis of the deposited data

How the results depend on the processing

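The count of members called between 3 and 5 dpf was 7, and it was 1 with signals under 4 set to 4 and 14 with no fold limit. Between 3 and 4 dpf the count of 3 became 1 with the floor and 25 with no fold limit. Between 4 and 5 dpf the single call became 0 with the floor, 0 among members with a mean of at least 5, 0 when only the arrays of 4 and 5 dpf were fitted, and 14 with no fold limit. At an unadjusted limma p under 0.05 those settings without a call held 12, 7 and 27 members. The shares of all probe sets under these settings are not given here, so these counts cannot be set against a background. The 13 members whose steps differed became 1 with the floor. Of the 6 pairs of copies, the 1 that differed became 0 with the floor, where none had an unadjusted limma p under 0.05, and 2 when all 9 arrays were fitted. The floor left the changes of slc38a4, slc15a4 and slc43a1a as they were (1.80, 1.58 and -1.47) while their adjusted p rose to 0.052, 0.063 and 0.053.

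Leaving out an array gave 1 to 9 calls between 3 and 5 dpf, where the counts without 3 dpf replicates 1, 2 and 3 were 3, 2 and 1. It gave 2 to 4 calls between 3 and 4 dpf, 0 to 1 between 4 and 5 dpf, 2 to 13 members whose steps differed and 0 to 1 pairs. The steps differed for 3, 3 and 2 members without 4 dpf replicates 1, 2 and 3. With no call between 4 and 5 dpf, 21 to 31 members had an unadjusted limma p under 0.05, and with no pair 1 to 2 pairs had. The shares of all probe sets and all pairs in these fits are not given here either. With the replicate block, 8 members were called between 3 and 5 dpf, 4 between 3 and 4 dpf and 1 between 4 and 5 dpf, the steps differed for 12 (10 of them among the 13), and 1 pair of copies differed. The block fitted to the arrays of 3 and 4 dpf alone, an alternative added after seeing the data, gave 4 calls as well, slc14a2 being the call gained (adjusted p = 0.0079). No named member's called change turned its direction under any setting run. Counts of calls between ages under the other settings were within 1.5 times those above. For the difference between steps, no result is given here for a mean of at least 5, median centring or trended and robust variance. The same holds for control probe sets kept and another set of arrays. With quantile normalization 5 of the 7 members called between 3 and 5 dpf were shared, slc43a2b and slc7a3a being lost (adjusted p = 0.054 and 0.055) and the second probe set of slc39a7 gained (adjusted p = 0.027). Low signals near the end of the GCRMA scale limit what can be read from the 57 dim members.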
